A study of Homo sapiens with 6 samples.

Results

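The genes that encode the chains of collagens and laminins were examined in RNAseq data of Meg-01 cells, an established human megakaryoblastic cell line. They were taken as the protein-coding rows of the deposited read-count table whose gene symbol has the form COL, number, A, number or LAMA, LAMB or LAMC and a digit. This gave 56 genes among 58735 rows, 44 for collagen and 12 for laminin chains. Of these, 28 genes (20 collagen and 8 laminin chains) reached 10 counts in 3 libraries. One group was left untreated (control, 3 libraries) and the other received sodium propionate (C3, the salt of a short-chain fatty acid from bacterial fermentation) at 500 µM for 48 hours according to the labels (3 libraries), whereas the methods also name a shorter incubation. Both groups are the same cell line without any other treatment or genetic change named in the labels. In the study's legend the 3 libraries of each group are technical replicates, so all p-values measure the spread between these libraries, which may not include that between independent cultures. Library totals were between 16159449 and 22821722 counts.

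Collagens are built from chains that wind into helices, in which glycine recurs at regular steps. Fibrillar collagens form the tensile fibres of connective tissue, type IV collagen forms the net of basement membranes, and type VI collagen forms beaded filaments around cells. Laminins are cross-shaped proteins made of an alpha, a beta and a gamma chain, and they assemble into the second net of basement membranes, to which nidogens, perlecan and agrin bind. In the bone marrow, megakaryocytes lie against the laminin and type IV collagen of sinusoid walls, and collagen of the vessel wall activates platelets through dedicated receptors.

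C3-treated cells had higher expression of many of these genes, and none was called lower. LAMA1, the laminin alpha chain typical of early embryonic basement membranes, rose 3.35-fold. COL27A1, a fibrillar collagen, rose 1.96-fold, COL6A2 of type VI collagen 1.67-fold, and LAMA5, COL18A1, COL15A1 and COL23A1 between 1.47-fold and 1.56-fold. Expression of the gamma chains LAMC1 and LAMC3, the former with the highest level per length among these genes, was 1.23-fold and 1.13-fold that of control cells, below the fold change gate. Expression was compared by edgeR's quasi-likelihood test over all 15078 genes with at least 10 counts in 3 libraries, with Benjamini-Hochberg adjustment, and genes were called where the adjusted p-value was below 0.01 and the fold change exceeded 1.3, the gates of the study. In bulk RNA, a change in the share of cells cannot be told apart from a change in RNA per cell. Of the 28 chain genes tested, 10 were called higher and 0 lower, whereas 5.05% of all tested genes were called higher and 1.47% lower, or 6.52% in either direction. DESeq2 also called 0 lower, and by edgeR 0 were lower at an unadjusted p-value below 0.05. With the adjusted p of edgeR below 0.05 as the only gate, 16 were higher and 0 lower, compared with 11.0% and 8.77% of all tested genes. The log2 fold change was above 0 in 25 of the 28, as in 50.4% of all tested genes. Since COL1A1, COL7A1 and LAMB2 reached 10 counts in C3 libraries only, their entry into the list already required a difference. COL4A2 and COL4A6 reached 10 counts in 3 C3 libraries but only 1 control library, so their entry also rested on the C3 libraries. Among the 16 chain genes with a mean of at least 50 counts over all 6 libraries, 8 were called higher and 0 lower. Of all genes above that limit, 5.61% were called higher and 1.79% lower, or 7.40% in either direction. The limit uses the raw counts of both groups. LAMB3, among the 8, had 50, 41 and 17 counts in control and 78, 71 and 94 in C3 libraries. COL5A1, not called, had 59, 40 and 47 against 51, 66 and 118. The place of both above the limit therefore rested on the C3 libraries. The median log2 fold change of these 16 genes was 0.51 and that of all genes above the limit -0.014. All 16 had a log2 fold change above 0, as did 47.0% of all genes above the limit. COL5A2, with a log2 fold change of -0.13, had a mean of 49.3 counts and only just missed the limit. In 15 of the 16, every C3 library was higher than every control library, which held for 17.5% of all genes above the limit.

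Control replicate 3 had the lowest normalised count of the control libraries in 13 of these 16 genes, or 81.2%, and in 38.1% of all genes above the same limit. Among all 28 tested chain genes it was the lowest in 17, or 60.7%, compared with 37.3% of all tested genes. With all libraries, 10 of 28 chain genes and 761 of all 15078 tested genes were called higher. Without control replicate 3 it was 7 of 28 chain genes and 584 of all 14970 tested genes. LAMB3, COL23A1 and COL1A1 were not called there, with log2 fold changes of 0.72, 0.52 and 1.62. Without C3 replicate 3, the deepest library, 6 of 24 tested chain genes were called higher, beside 516 of all 14701 tested genes. The 6 were LAMA1, LAMA5, COL6A2, COL15A1, COL18A1 and COL27A1. LAMB3 and COL23A1 were tested there and not called, while LAMB2 and COL1A1 did not reach 10 counts in 3 libraries and were not tested. In all values below, normalised counts are counts divided by TMM-scaled library sizes and brought to their mean size, given as mean ± SD over 3 libraries. Where the groups did not overlap, an exact two-sided permutation test of the normalised counts gave 0.1, which is the lowest value possible with 3 libraries per group.

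**Figure D1:**
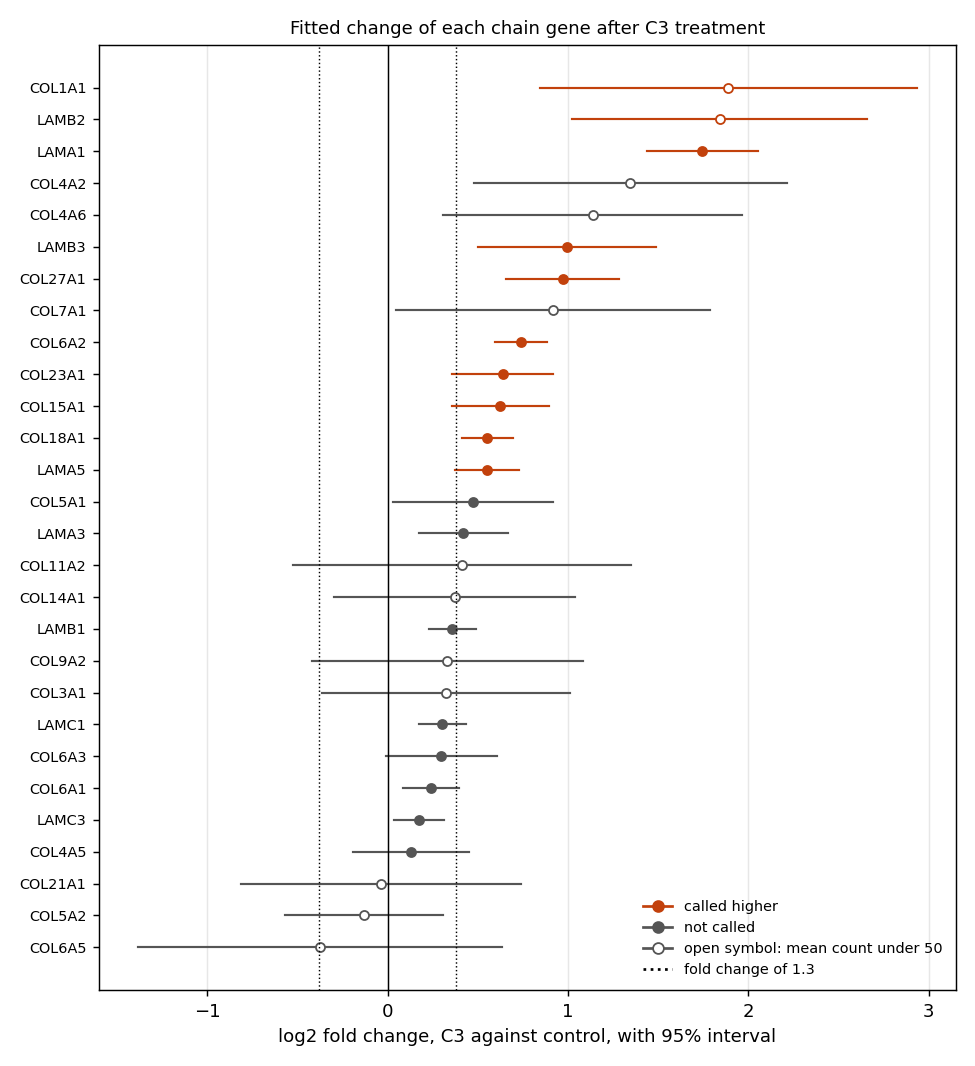
Log2 fold change of each of the 28 tested chain genes after C3 treatment (dots) with its 95% interval (lines) from edgeR's fit, with called genes in orange, genes with a mean under 50 counts as open symbols and dotted lines at a fold change of 1.3 in either direction. LAMA1 stands at 1.75 with an interval of 1.44 to 2.05, while the wide intervals at the top and bottom belong to genes with few counts, such as COL1A1 and COL6A5.

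Per kilobase of merged exon, the levels of the 28 genes spanned from 0.720 (COL4A2) to 314 (LAMC1) normalised counts as the mean of all libraries. In this mean LAMC1 was followed by LAMC3 (229), COL6A2 (199), COL18A1 (133), COL6A1 (127), LAMB1 (80.1) and LAMA5 (54.3). The libraries of LAMC1 lay above all those of LAMC3, and those of COL6A1 above all those of LAMB1. This order depends on the merged exon length, which joins the exons of all annotated transcripts of a gene. LAMB1, with 18592 merged bases, had a mean of 1503 counts, more than COL6A1 with 5536 bases and 705.5 counts. All other neighbours in the order of levels overlapped between libraries, and in the C3 libraries alone the mean of COL6A2 (248) was above that of LAMC3 (243). In the control libraries alone the mean of COL6A1 (116) was above that of COL18A1 (107). The classical collagens of fibroblasts were close to the limit of detection, with 4.52 ± 1.87 normalised counts of COL1A1 and 18.3 ± 2.78 of COL3A1 in control cells. COL1A2, whose chain joins that of COL1A1 in type I collagen, had 8 counts in all 6 libraries together.

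**Figure D2:**
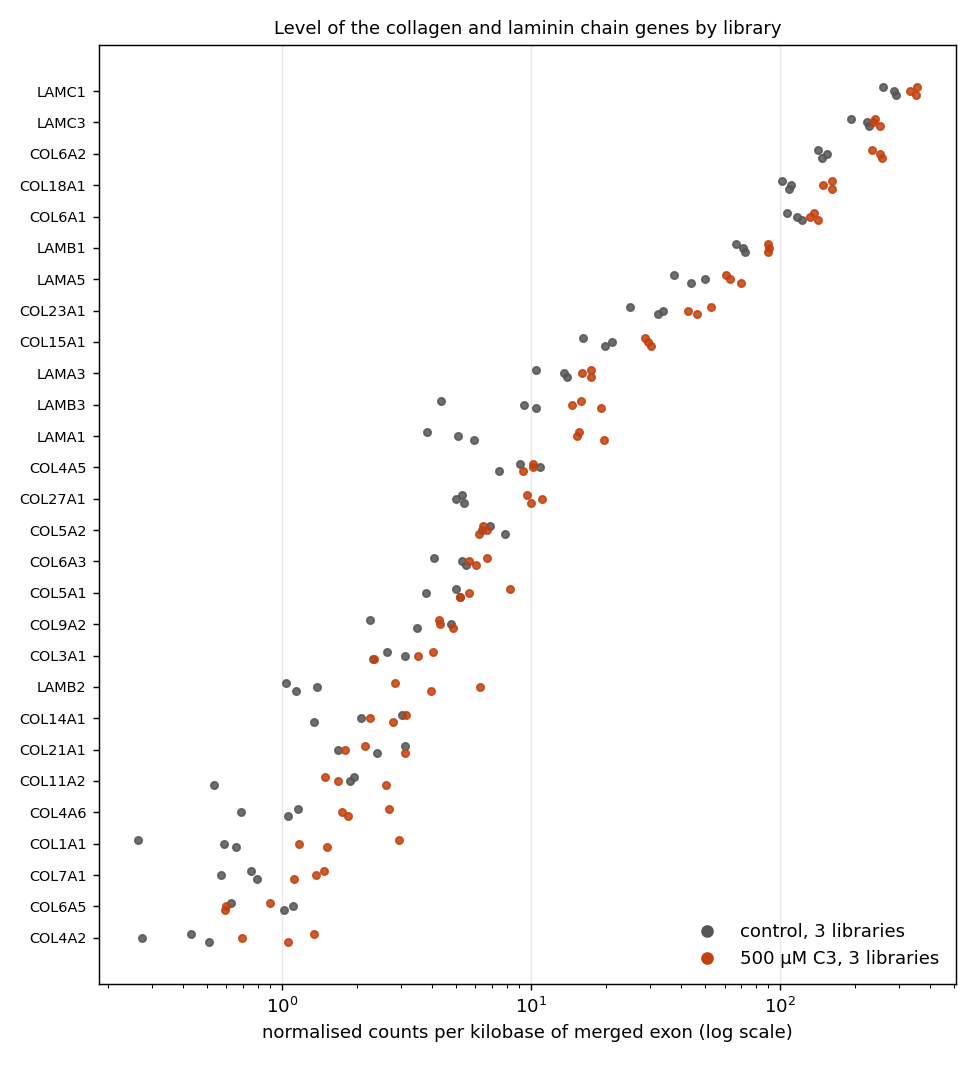
Normalised counts per kilobase of merged exon (log scale) of the 28 tested chain genes in each of the 3 control (grey) and 3 C3 libraries (orange), ordered by the mean of all libraries. LAMC1, LAMC3, COL6A2 and COL18A1 lead this order, and the orange dots lie to the right of the grey ones for most genes with more than 10 counts per kilobase.

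To show the sequence around the starts of these genes, the 250 bases before the RefSeq start (GRCh38.p14) were taken for the 41 of 56 genes with an entry. They were searched on both strands for the GC box GGGCGG, the CCAAT box CCAAT and the TATA box TATAAA, none of which is part of another. Shown are COL6A2, COL18A1, LAMA5 and LAMB2, which were called higher, and COL4A5 and COL4A6, a head-to-head pair with 340 bases between the genes. The lines give the strand of the gene from 5′ to 3′, with matches in capitals.
COL6A2 (chr21:46097862-46098111, forward strand): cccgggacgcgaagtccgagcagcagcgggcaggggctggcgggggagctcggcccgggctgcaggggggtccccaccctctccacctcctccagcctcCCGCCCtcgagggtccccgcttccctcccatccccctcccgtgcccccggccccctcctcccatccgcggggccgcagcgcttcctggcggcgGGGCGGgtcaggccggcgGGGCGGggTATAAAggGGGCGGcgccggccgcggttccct
COL18A1 (chr21:45404915-45405164, forward strand): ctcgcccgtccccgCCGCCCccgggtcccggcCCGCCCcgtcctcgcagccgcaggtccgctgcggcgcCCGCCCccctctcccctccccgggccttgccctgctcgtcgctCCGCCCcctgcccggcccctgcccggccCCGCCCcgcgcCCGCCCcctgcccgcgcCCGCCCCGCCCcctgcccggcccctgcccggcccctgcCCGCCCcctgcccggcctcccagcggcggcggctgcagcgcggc
LAMA5 (chr20:62367313-62367562, reverse strand): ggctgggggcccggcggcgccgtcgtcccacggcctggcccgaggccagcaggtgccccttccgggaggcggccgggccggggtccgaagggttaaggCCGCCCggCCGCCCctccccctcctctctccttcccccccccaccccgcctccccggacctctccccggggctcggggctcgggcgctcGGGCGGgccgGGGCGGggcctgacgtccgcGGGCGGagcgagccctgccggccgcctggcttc
LAMB2 (chr3:49133051-49133300, reverse strand): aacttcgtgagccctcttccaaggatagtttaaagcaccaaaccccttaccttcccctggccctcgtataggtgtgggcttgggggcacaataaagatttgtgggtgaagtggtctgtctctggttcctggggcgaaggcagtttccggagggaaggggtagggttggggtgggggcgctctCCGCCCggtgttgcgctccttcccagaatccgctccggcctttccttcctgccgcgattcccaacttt
COL4A5 (chrX:108439588-108439837, forward strand): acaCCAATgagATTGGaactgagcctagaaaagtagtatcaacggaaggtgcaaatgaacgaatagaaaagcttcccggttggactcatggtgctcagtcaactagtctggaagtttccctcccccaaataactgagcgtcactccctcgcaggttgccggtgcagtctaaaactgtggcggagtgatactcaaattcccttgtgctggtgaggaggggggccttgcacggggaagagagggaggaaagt
COL4A6 (chrX:108439459-108439708, reverse strand): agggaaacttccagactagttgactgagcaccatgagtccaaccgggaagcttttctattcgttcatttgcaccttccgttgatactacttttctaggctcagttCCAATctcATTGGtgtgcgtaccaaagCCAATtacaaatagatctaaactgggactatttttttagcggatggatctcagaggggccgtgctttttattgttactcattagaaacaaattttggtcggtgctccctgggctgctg
COL18A1 held 9 matches to the GC box, LAMA5 5, COL6A2 4 and LAMB2 1. COL6A2 also held the letters of a TATA box. COL4A5 and COL4A6 held none of the GC box but 2 and 3 CCAAT boxes, and their windows share 121 bases. Both matches of COL4A5 lie in the shared bases and are counted again for COL4A6. All 8 called genes with an entry held a GC box, compared with 8 of 12 tested genes that were not called, 8 of 21 genes under the count limit and 42.6% of all 35116 RefSeq windows of this length. The windows of the called genes had a median GC content of 75.6%, against 58.0% over all windows. Of the 8 windows, 0 held a CCAAT box and 1 a TATA box, against 32.0% and 10.7% of all windows. These matches describe the letters only.

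Among the laminin alpha chains, LAMA1 changed most. LAMA1 (ENSG00000101680, chr18:6941742-7117797, reverse strand of GRCh38) had 94.0, 80.6 and 60.9 normalised counts in the control libraries and 312, 243 and 247 in the C3 libraries. The groups were far apart, with every C3 library above every control library. The log2 fold change was 1.75 (SE 0.15, edgeR adjusted p = 6.1e-09). Antisense transcripts cover 11.1% of its exon bases, and the rows of these transcripts were at 0 counts in all libraries. LAMA5 (ENSG00000130702, chr20:62307955-62367312), the alpha chain of most adult basement membranes including those of marrow sinusoids, had 632, 718 and 536 normalised counts in control cells and 997, 904 and 873 after C3 treatment. All C3 libraries lay above the controls, with a log2 fold change of 0.55 (SE 0.086, edgeR adjusted p = 5.4e-05). LAMA3 (ENSG00000053747, chr18:23689453-23956222), the alpha chain of epithelial anchoring laminin, had 202, 197 and 152 against 254, 234 and 253 normalised counts. The groups did not overlap, but its edgeR adjusted p of 0.014 lay above the gate of 0.01, with a log2 fold change of 0.42 (interval 0.17 to 0.67). LAMA2 and LAMA4, the chains of muscle and of vessel walls, had at most 17 and 9 counts in any library.

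The beta chains were dominated by LAMB1 (ENSG00000091136, chr7:107923799-108003213), the common partner in basement membrane laminins. Its normalised counts were 1343, 1326 and 1245 in control cells and 1667, 1678 and 1674 after C3 treatment. The C3 libraries were nearly equal and all above the controls. The log2 fold change of 0.36 (SE 0.063, edgeR adjusted p = 2.2e-04) passed the p-value gate and stayed just below the fold change gate of 0.38 on the log2 scale. LAMB3 (ENSG00000196878, chr1:209614870-209652425), which pairs with LAMA3 in epithelia, had 49.0, 43.5 and 20.3 against 88.8, 68.0 and 73.7 normalised counts, with control replicate 3 far below the other control libraries. Its log2 fold change was 1.00 (SE 0.24, edgeR adjusted p = 0.0041) and 0.72 without control replicate 3, where it was no longer called. LAMB2 (ENSG00000172037, chr3:49121114-49133118), the beta chain of kidney and synaptic basement membranes, was near the detection limit in control cells with 8, 9 and 6 counts. The C3 libraries had 24, 45 and 25 counts, all above the controls, and the log2 fold change was 1.84 (interval 1.02 to 2.66, edgeR adjusted p = 0.0016). Its pseudogene LAMB2P1, from which reads could be shared, had at most 4 counts in any library.

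LAMC1 (ENSG00000135862, chr1:183023420-183145592), the gamma chain of most laminins, had 2475, 2436 and 2204 normalised counts in control cells and 2971, 2818 and 2993 after C3 treatment. The groups were separate, with a small log2 fold change of 0.30 (SE 0.064, edgeR adjusted p = 0.0013). LAMC3 (ENSG00000050555, chr9:131009174-131094473), a gamma chain better known from brain, skin and reproductive tract, was almost as abundant with 2040, 2012 and 1722 against 2254, 2113 and 2160 normalised counts. Its log2 fold change of 0.18 had an edgeR adjusted p of 0.071, although the groups did not overlap. Without control replicate 3 it was 0.10, with an edgeR adjusted p of 0.30. LAMB4, a beta chain with 9 counts in total, lies 20334 bases from LAMB1.

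The make-up of each laminin class differed between the groups. The size of each share depends on the merged exon lengths, such as 18592 bases for LAMB1, 6865 for LAMB2 and 4647 for LAMB3. LAMA1 made up 7.94% ± 1.09 of the alpha chain counts per kilobase in control and 16.9% ± 1.22 in treated cells (SD, n = 3 libraries per group). The share of LAMA5 was 70.7% ± 1.91 and 65.0% ± 0.970, and that of LAMA3 20.4% ± 1.09 and 17.2% ± 1.08. LAMB1 held 88.3% ± 3.31 of the beta chains in control and 81.0% ± 1.62 in treated cells, and LAMB3 9.98% ± 3.49 and 14.9% ± 1.90. The LAMB3 share was 12.5%, 11.4% and 6.01% in the control libraries, and the log2 ratio of LAMB3 to LAMB1 and LAMB2 differed by 0.73 with all libraries and by 0.38 without control replicate 3. LAMB2 made up 1.36%, 1.69% and 1.43% in the control and 3.52%, 5.64% and 2.62% in the C3 libraries, with all C3 libraries higher. Within libraries, the log2 ratio of LAMA1 to the sum of LAMA3 and LAMA5 was higher by 1.24 after C3 treatment. The difference was -0.91 for LAMB1 to the sum of LAMB2 and LAMB3, and 0.12 for LAMC1 to LAMC3. For each of these ratios the exact permutation test, two-sided, gave p = 0.1, the smallest possible, which no adjustment can bring below 0.05. The ratios within a class are built from the same chains and are not separate results, and LAMB2 reached the count limit through C3 libraries only. Ratios within libraries do not depend on the scaling and show unequal change, not which chain changed.

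**Figure D3:**
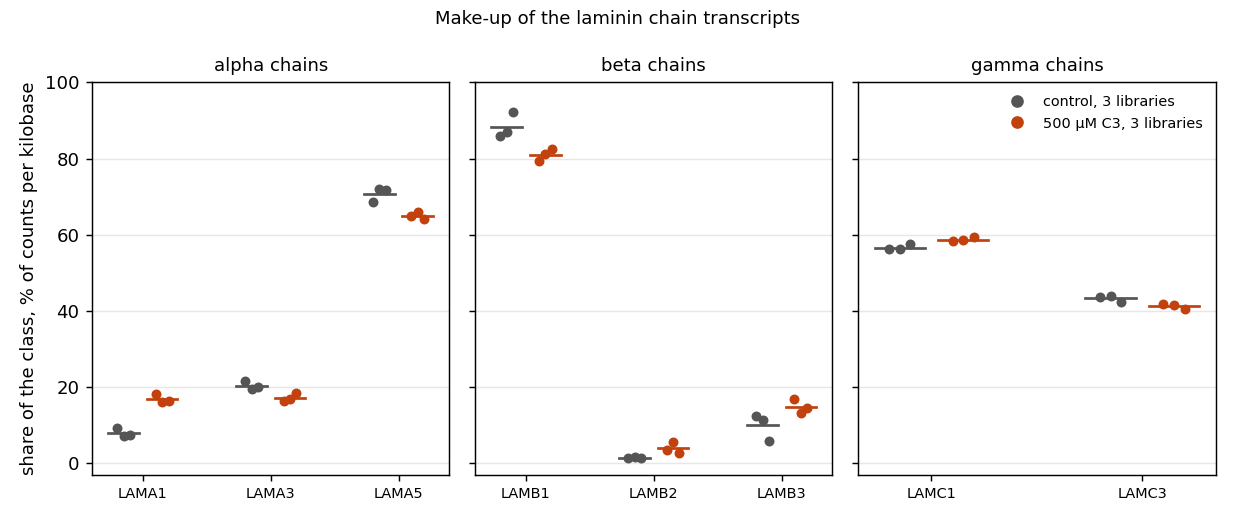
Share of each laminin chain above the count limit in the counts per kilobase of its class (alpha, beta or gamma, in %) in the 3 control (grey) and 3 C3 libraries (orange), with lines at the group means. The share of LAMA1 among the alpha chains goes from 7.94% to 16.9%, and the share of LAMB1 among the beta chains from 88.3% to 81.0%.

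COL6A2 of type VI collagen had the highest level per kilobase among the collagen genes. COL6A2 (ENSG00000142173, chr21:46098112-46132848, forward strand) had 790, 828 and 761 normalised counts in control cells and 1378, 1348 and 1249 after C3 treatment. All C3 libraries lay well above the controls, with a log2 fold change of 0.74 (SE 0.069, edgeR adjusted p = 2.8e-08). COL6A1 (ENSG00000142156, chr21:45981770-46005050), which lies 93061 bases upstream on the same strand and encodes the chain that assembles with that of COL6A2, had 679, 652 and 593 against 785, 734 and 761 normalised counts. The groups did not overlap, but the log2 fold change was 0.24 (SE 0.075, edgeR adjusted p = 0.023) and passed neither gate. The log2 ratio of COL6A2 to COL6A1 was 0.22, 0.34 and 0.36 in control and 0.81, 0.88 and 0.71 in C3 libraries. This ratio was chosen after the values were seen and is given as a description. COL6A3 (ENSG00000163359, chr2:237324003-237414328), the large chain of the same heterotrimer, had 107 ± 16.2 and 132 ± 11.1 normalised counts and a log2 fold change of 0.30 (interval -0.012 to 0.61, edgeR adjusted p = 0.17), which was 0.19 without control replicate 3. COL6A5, an alternative to COL6A3, had at most 11 counts in any library. Its log2 fold change was -0.37 (interval -1.38 to 0.64, edgeR adjusted p = 0.65), with overlapping groups.

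Both collagens of the multiplexin group, which sit in vascular and epithelial basement membranes, were called higher, beside 5.05% of all tested genes. COL18A1 (ENSG00000182871, chr21:45405165-45513720), whose C-terminal fragment is endostatin, had 925, 943 and 861 normalised counts in control cells and 1375, 1261 and 1371 after C3 treatment. The log2 fold change was 0.55 (SE 0.068, edgeR adjusted p = 2.2e-06), with the groups apart. SLC19A1 on the other strand covers 18.5% of the COL18A1 exon bases, and the strand setting of the counting is not given in the sources used here. The log2 fold change of SLC19A1 was -0.21, opposite in sign. COL15A1 (ENSG00000204291, chr9:98943179-99070792) had 132, 141 and 107 against 201, 197 and 192 normalised counts, with C3 libraries above all controls. Its log2 fold change was 0.63 (SE 0.13, edgeR adjusted p = 0.0012). COL23A1 (ENSG00000050767, chr5:178237476-178590393), a collagen anchored in the cell membrane, had 141, 148 and 109 against 203, 187 and 231 normalised counts. Its groups did not overlap either, with a log2 fold change of 0.64 (SE 0.14, edgeR adjusted p = 0.0015). The other transmembrane collagens COL13A1, COL17A1 and COL25A1 had 0, 4 and 11 counts in total.

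Of 11 fibrillar collagen genes, 6 were tested and COL27A1 and COL1A1 were called higher, beside 5.05% of all tested genes. COL27A1 (ENSG00000196739, chr9:114155537-114312511), known from developing cartilage, had 75.4, 70.0 and 74.0 normalised counts in control cells and 140, 156 and 135 after C3 treatment. The C3 libraries stood clear of the controls, with a log2 fold change of 0.97 (SE 0.15, edgeR adjusted p = 5.4e-05). COL1A1 (ENSG00000108821, chr17:50184101-50201632), the main chain of bone and skin collagen, had 6, 5 and 2 counts in control and 12, 11 and 34 in C3 libraries. These counts are small, and C3 replicate 3 holds more than the other C3 libraries together. COL1A1 reached the count limit through C3 libraries only. The log2 fold change of 1.89 had a wide interval of 0.84 to 2.93 and an edgeR adjusted p of 0.0094, and the call was lost in 5 of the 10 alternatives that gave an adjusted p, limma-voom among them. DESeq2 gave it none. COL5A1 and COL5A2, the chains of type V collagen, which regulates fibril width, had log2 fold changes of 0.47 (interval 0.030 to 0.92) and -0.13 (interval -0.57 to 0.31), with edgeR adjusted p of 0.13 and 0.72. COL5A1 had 58.0, 63.2 and 92.5 normalised counts in the C3 libraries, and its log2 fold change was 0.22 without C3 replicate 3. That of COL5A2 was -0.022 without control replicate 1. COL3A1 and COL11A2 had edgeR adjusted p of 0.55 and 0.58 and overlapping groups.

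Of 6 type IV collagen genes, 3 were tested and 0 called in either direction by edgeR's test, beside 6.52% of all tested genes. The main form of basement membranes, made of COL4A1 and COL4A2, had 5, 4 and 2 counts of COL4A1 in control and 9, 8 and 18 in C3 libraries, so that COL4A1 missed the count limit. COL4A2 (ENSG00000134871, chr13:110305812-110513209) had 10, 5 and 7 counts in control and 18, 14 and 33 in C3 libraries. Its normalised counts did not overlap, with a log2 fold change of 1.35 (interval 0.48 to 2.21) and an edgeR adjusted p of 0.025. COL4A5 (ENSG00000188153, chrX:108439838-108697545), a chain of kidney and skin basement membranes, was the most abundant with 88.2, 129 and 107 against 110, 122 and 122 normalised counts. The groups overlapped, and the log2 fold change was 0.13 (interval -0.19 to 0.45, edgeR adjusted p = 0.62), ranging from 0.0058 without control replicate 1 to 0.28 without control replicate 2. Its head-to-head neighbour COL4A6 (ENSG00000197565, chrX:108155607-108439497) had 9.80, 6.36 and 10.7 against 17.1, 16.3 and 25.1 normalised counts. The C3 libraries lay above the controls, with a log2 fold change of 1.14 (interval 0.31 to 1.97) and an edgeR adjusted p of 0.047. The log2 ratio of COL4A5 to COL4A6 was 3.53 ± 0.614 in control and 2.59 ± 0.308 in C3 libraries. The difference of -0.94 was -0.59 without control replicate 2, whose ratio was 4.24 against 3.11 and 3.25 in the other control libraries. The exact two-sided permutation p was 0.1 with all libraries. COL4A6 reached 10 counts in 3 C3 libraries but only 1 control library, so the ratio is given as a description. COL4A3 and COL4A4 had 11 and 4 counts in total.

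Of 10 genes of fibril-associated collagens, which decorate fibrils, 3 were tested. By edgeR's test 0 were called in either direction, beside 6.52% of all tested genes. COL9A2, COL14A1 and COL21A1 had log2 fold changes of 0.33, 0.37 and -0.036 and overlapping groups. The value of COL9A2 was 0.12 without control replicate 3 and 0.61 without control replicate 2, and that of COL14A1 was 0.12 without control replicate 1 and 0.69 without control replicate 3. COL7A1, the collagen of skin anchoring fibrils, had 9, 6 and 7 counts in control and 11, 16 and 21 in C3 libraries. Its log2 fold change was 0.92 (interval 0.045 to 1.79, edgeR adjusted p = 0.13). Of the 28 genes under the count limit, COL8A1, COL8A2, COL13A1 and COL19A1 were among those with 0 counts in every library, which allows up to 3 counts per library, or 0.126 to 0.192 CPM (counts scaled to library size). The highest total among the 28 was 60 counts. Without a count limit, COL26A1, a collagen of testis and ovary, was the only one of them that passed both gates. It had 1, 2 and 1 counts in control and 13, 14 and 6 in C3 libraries, with an edgeR adjusted p of 0.0071 in that fit.

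The genes around collagens and laminins were examined by lists. Of 18 genes of basement membrane partners, 9 were tested, and 5 were called higher and 0 lower by edgeR's test, beside 5.05% and 1.47% of all tested genes. FRAS1 had an edgeR adjusted p of 0.034 with a log2 fold change of -0.19. SPARC (0.058), FREM1 (0.038) and SMOC2 (0.34) were tested and not called. The summed normalised counts of the list overlapped, with 26402 to 27250 in control and 26282 to 27259 in C3 libraries. FRAS1 made up most of these sums. NID1 and NID2, the nidogens that link laminin to type IV collagen, rose from 40.4 ± 10.6 to 138 ± 22.5 and from 63.0 ± 5.04 to 146 ± 25.6 normalised counts. Their log2 fold changes were 1.75 and 1.22 (edgeR adjusted p = 4.2e-07 and 8.6e-06). HSPG2, the gene of perlecan, and AGRN, the gene of agrin, which both bind laminin, had log2 fold changes of 0.63 and 0.40 (edgeR adjusted p = 5.8e-05 and 4.2e-04). HSPG2 had 1788, 1766 and 1188 normalised counts in the control libraries and AGRN 2482, 2377 and 1934, with control replicate 3 the lowest in both. Without it the log2 fold change of AGRN was 0.30 and below the fold change gate, as it was without C3 replicate 1 (0.36) and with a GC correction (0.31), while HSPG2 was not called by DESeq2 (adjusted p = 0.015). FBLN1, the gene of fibulin, had 0.54 (edgeR adjusted p = 0.0011). The median over the 9 genes was 0.40, compared with 0.0021 over all tested genes.

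**Figure D4:**
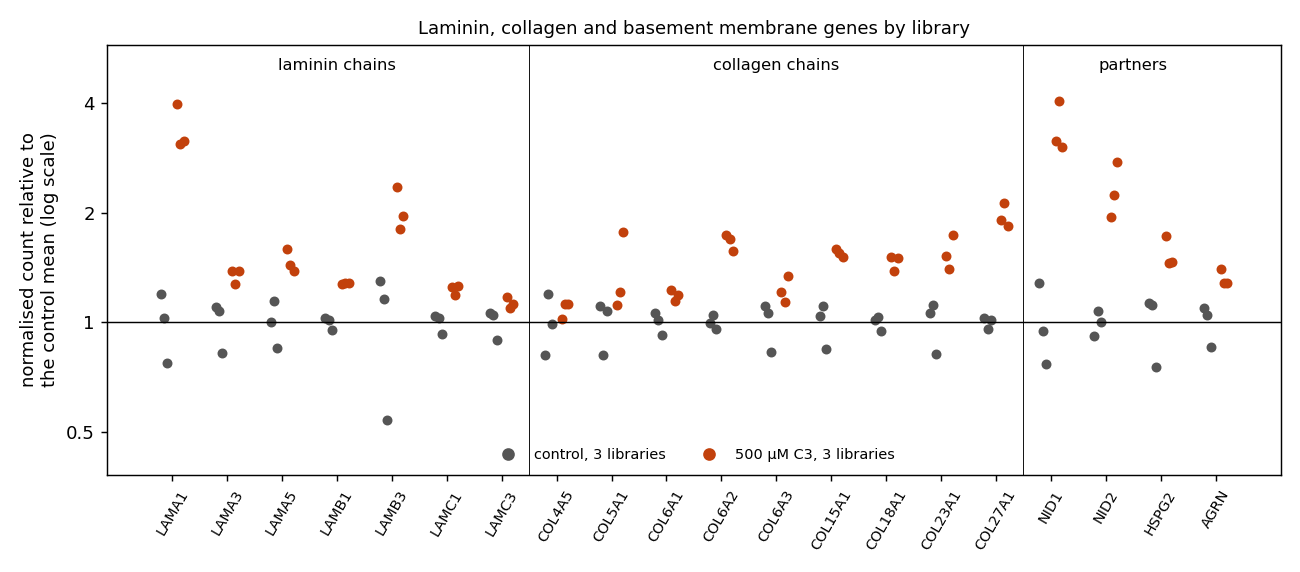
Normalised counts relative to the control mean (log scale) of the laminin and collagen chain genes with at least 50 counts on average, and of 4 basement membrane partners, in each of the 3 control (grey) and 3 C3 libraries (orange). LAMA1 and NID1 show the largest rises. Among the chain genes plotted only COL4A5 has overlapping groups, while those of COL5A1 nearly touch. Every C3 library was above every control library in 17.5% of all genes with such a mean. The 4 partners were taken from the 5 called higher, so their separation is not a separate result. Partners that were tested and not called, such as FRAS1 and SPARC, are not shown.

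The machinery that makes collagen was examined next. Of 33 genes for collagen synthesis and assembly, 28 were tested, 3 were called higher and 0 lower by edgeR's test, beside 5.05% and 1.47% of all tested genes, with a median log2 fold change of 0.045. Another 3 had negative log2 fold changes and an edgeR adjusted p below 0.05 but stayed below the fold change gate. They were BMP1, a procollagen protease (-0.32), LOXL1, a crosslinking enzyme (-0.33), and CRTAP, a partner of prolyl hydroxylase (-0.18). MIA3, which helps to export collagen (0.27), and PXDN, which crosslinks type IV collagen (0.20), were positive at the same threshold and below the fold change gate. Called higher were P4HA2, a proline hydroxylase subunit (log2 fold change 0.72, edgeR adjusted p = 7.3e-05), ADAMTS2, which trims fibrillar procollagen (0.46, edgeR adjusted p = 0.0021), and P3H3, of the prolyl hydroxylase family (0.43, edgeR adjusted p = 0.0012). Of 19 receptors, 16 were tested, 5 were called higher and 1 lower, beside 5.05% and 1.47% of all tested genes, with a median of 0.17. MRC2, which takes up collagen (log2 fold change 0.63), BCAM, which binds LAMA5 laminins (0.54), DDR1, a collagen-activated kinase (0.83), and the laminin-binding integrin subunits ITGA6 (0.43) and ITGA7 (1.10) were higher. ITGA2, a collagen-binding integrin subunit (0.66), and CD44 (0.20) had positive values at an edgeR adjusted p below 0.05 without being called. LAIR1, an inhibitory collagen receptor of blood cells, fell by 0.46 on the log2 scale (edgeR adjusted p = 1.9e-05). Of 25 matrix proteases and inhibitors, 15 were tested, with a median of 0.28. By edgeR's test 2 were called higher and 0 lower, beside 5.05% and 1.47% of all tested genes. The 2 called were MMP15 (0.48), a membrane-bound protease, and TIMP2 (0.48), a protease inhibitor. With the adjusted p of edgeR below 0.05 as the only gate, 7 were higher and 1 lower, beside 11.0% and 8.77% of all tested genes. The others were MMP2 (0.35), MMP16 (0.58), MMP17 (0.32), TIMP3 (0.28) and CTSL (0.32), and TIMP1 (-0.24) was the lower one.

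Markers of other cell types were examined because collagens are typical of fibroblasts. Their calls stand beside the 5.05% of all tested genes called higher and the 1.47% called lower. Of 10 fibroblast markers, 4 were tested. FBLN1 was called higher and LUM lower, with a log2 fold change of -0.66. PRRX1, with 3, 1 and 1 counts in control and 11, 21 and 15 in C3 libraries, was also called higher but reached the count limit through C3 libraries only. DCN, the other one tested, had 9.51 and 17.6 normalised counts on average and was not called, and the median over the 4 was 0.68. Under the count limit, PDGFRA had 5, 2 and 4 counts in control and 9, 5 and 11 in C3 libraries, PDGFRB 2, 0 and 2 against 2, 6 and 7, and TWIST1 1, 0 and 0 against 7, 3 and 3. FAP had 0 counts, and POSTN and MFAP5 had 1 count each over all libraries. The summed normalised counts of this list were between 858 and 1020 in control and between 729 and 831 in C3 libraries, and LUM made up most of them. FBLN1, PRRX1, DCN, PDGFRA, PDGFRB and TWIST1 had higher means in C3 libraries, opposite to the sum. Of 8 endothelial markers, 7 were tested, and KDR (log2 fold change 0.65) and TEK (0.59) were called higher, and the sums lay between 10970 and 11379 in control and between 12757 and 13888 in C3 libraries. The most abundant members were ESAM (4753 and 5024 normalised counts on average) and EGFL7 (3360 and 3689), which were not called. TIE1 had a log2 fold change of 0.35 (edgeR adjusted p = 5.2e-04), below the fold change gate, and ROBO4 one of -0.64 (edgeR adjusted p = 0.15) with overlapping groups. CLDN5 had at most 8 counts. CDH5, a defining gene of endothelium, had 16.4 ± 7.21 and 33.8 ± 4.29 normalised counts and was not called, with a log2 fold change of 1.01 (edgeR adjusted p = 0.031). Of 6 epithelial markers, 3 were tested and 0 called in either direction by edgeR's test. KRT18 had a log2 fold change of -0.34 (edgeR adjusted p = 0.0015), below the fold change gate. KRT5 and KRT19 had 0 counts, and the sums were between 2232 and 2526 in control and between 1944 and 2165 in C3 libraries. Of 12 megakaryocyte markers, 10 were tested. ITGA2B had 12902 ± 390 and 12377 ± 878 normalised counts and GATA1 showed a log2 fold change of 0.023, while GP1BA (-0.49) and TUBB1 (-1.36) were called lower and PF4 and GP1BB had 0 counts. NFE2 (-0.38, edgeR adjusted p = 1.9e-04) missed the fold change gate. ITGB3, the integrin partner of ITGA2B, had 184 and 233 normalised counts on average without overlap and a log2 fold change of 0.34 (edgeR adjusted p = 0.033), and was not called. The sums of the megakaryocyte list were between 20287 and 21308 in control and between 18064 and 20209 in C3 libraries. The part of these shifts in the collagen and laminin values was not tested.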

How the data were processed

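RNA of Meg-01 cells without treatment or after C3 treatment was sequenced in 3 libraries per group. According to the labels and methods, reads were cleaned by the authors with fastp, aligned by STAR (2.6.1d) against GRCh38/hg38, and assigned to genes by featureCounts (1.5.0-p3). The deposited values are raw counts per Ensembl gene without normalization. The sources used here give neither the annotation release nor the strand setting.

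Columns were matched to samples by their names. Symbols, coordinates and merged exon lengths came from GENCODE release v44 on GRCh38, which held 58207 of 58735 identifiers, and sequences from RefSeq. Genes with at least 10 counts in 3 libraries (15078) were scaled by TMM and compared in R (4.3.3) by the quasi-likelihood test of edgeR (4.0.16), adjusted after Benjamini-Hochberg. Standard errors (SE) were obtained from the fold change and the F statistic, and intervals are 95% intervals. Log2 ratios used counts with a pseudocount of 0.5. Exact permutation tests were two-sided. Limits for 0 counts cover counting error only. The common dispersion of edgeR corresponds to a coefficient of variation of 6.21% between libraries.

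The chain genes, lists, gates and alternatives were chosen with earlier results of these data known. The ratios of type VI chains were added after their values were seen. Lists were written by hand and share FBLN1, and 1 of 34 names in the synthesis list was not matched. Values in each library are given for chain genes with an adjusted p-value below 0.05, the 6 with the highest count per kilobase, laminin chains and head-to-head type IV pairs above the limit. Called genes of each list are named, at most 6. COL4A1, COL1A2, COL5A1, COL5A2, COL6A3, COL7A1 and COL26A1 and uncalled genes of the lists are named in addition. Alternatives were DESeq2 (1.42.0), limma-voom (limma 3.58.1), RLE factors, library size alone, no count limit, a mean of at least 50 counts, each library left out, the replicate number as a block, and a loess correction for GC content (span 0.3) with and without the block. The fits were tested on simulated data. An item among the chain genes is not reported here.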

Additional observations from a re-analysis of the deposited data

How the results depend on the processing

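Of 388 log2 fold changes of single chain genes with an adjusted p under 15 alternatives, 365 kept their direction and side of the gates, 11 lost and 7 gained a call, and 5 changed sign. LAMA1, LAMA5, COL6A2, COL15A1, COL18A1 and COL27A1 were called in all 15, and LAMB2 in all 11 in which it was tested. LAMB3 lost its call by DESeq2 and without C3 replicate 1, C3 replicate 3 or control replicate 3, and COL23A1 without either of the last 2. LAMA3 gained a call under 5 alternatives, library size alone and the GC correction among them, and LAMB1 under library size alone and without control replicate 1. The number of chain genes called higher was 8 by DESeq2, 9 by limma-voom, 12 without a count limit and 12 with library size alone, and 0 were lower throughout. Of all tested genes, 561 of 13568 were called higher by DESeq2, 730 of 15078 by limma-voom and 930 of 28982 without a count limit. Library size alone called 1025 of 15078 higher and 100 lower, against 761 and 222 by edgeR with TMM. DESeq2 gave an adjusted p for 20 of the 28 genes and none for COL1A1. With each library left out, the number of chain genes called higher was 6 (without C3 replicate 3) to 10. Over all tested genes it was 516 (without C3 replicate 3) to 766 (without C3 replicate 1). With any C3 library left out, LAMB2 and COL1A1 missed the count limit and were not tested, and without C3 replicate 3 another 2 calls were lost on testing. The median log2 fold change of the tested chain genes was 0.45, and it moved to 0.54 by DESeq2 and 0.56 without a count limit, with 51 genes in place of 28, and to between 0.39 and 0.61 with a library left out. COL21A1, with few counts and a log2 fold change of -0.036, turned to 0.037 with library size alone and ranged from -0.26 to 0.17 with a library left out, and COL11A2 from -0.0020 to 0.67. The cause was not tested. The ratios between chains kept their direction, except that of COL6A3 to COL6A1 (0.061), which ranged from -0.014 to 0.10.

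Deviations of same-numbered libraries from their group means had correlations of -0.047 to 0.030, and 2 of 6 libraries correlated best with their own number. The labels name no pairing beyond this number. With 3 libraries per group the check is too weak to show whether same-numbered libraries were handled together. With the replicate block, 11 chain genes were called higher, and 10 with the GC correction added to the block. Of all 15078 tested genes, 909 and 788 were called higher in these 2 fits, against 761 without block or correction. COL4A2, COL4A6, COL7A1, COL1A1 and LAMB2 had fewer than 50 counts in every library. Among the called genes of the other lists, P3H3, ADAMTS2, ITGA6, ITGA7, DDR1 and TUBB1 each lost the call in at least 1 fit with a library left out, with the same direction. P3H3 also lost it with the GC correction alone, at 0.378 against a log2 gate of 0.379, and was called with the block added (0.383).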

Other observations

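Besides the protein-coding genes, 14 non-coding or pseudogene rows carry names made from a collagen or laminin chain. Of these, 9 had 0 counts in every library and 0 reached the count limit. LAMB2P1 had 4, 4 and 2 counts in control and 3, 3 and 2 in C3 libraries, and LAMC1-AS1, antisense to the most abundant chain gene, had 2, 5 and 0 against 1, 1 and 2. COL4A2-AS2, COL6A4P1 and COL18A1-AS1 had 1 or 2 counts in total.

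Further chain genes lie next to each other in the genome. COL3A1 and COL5A2 lie 19151 bases apart on opposite strands with 125 and 296 counts in total, and COL19A1, with 0 counts, lies 3571 bases from COL9A1, with 12. COL6A5 and COL6A6 lie 32330 bases apart with 47 and 8 counts, and COL4A3 and COL4A4, with 11 and 4, lie 170 bases apart.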
